A study of Homo sapiens with 3 samples.

Results

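Isolated binding sites of TIA1 are described here: peaks of the authors' reproducible list that had no other listed peak within 10000 nt on the same strand. Peaks on one chromosome and strand were joined across gaps of at most 10000 nt, and those left alone in their locus were taken. There were 1212 of them among 2253 listed peaks (53.8%), and they made up 77.2% of the 1570 loci. The others were 782 peaks in 324 loci of 2 to 4 peaks and 259 peaks in 34 loci of 5 or more. The rule used the positions of peaks that the authors had already selected by enrichment over input, so position, fold and p-value are given below as descriptions. No test over samples is possible with 2 replicates and 1 input, and peaks are not replicates of a condition, so the comparisons between classes of peaks are descriptions too.

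The data are eCLIP, in which ultraviolet light (600 mJ here) ties a protein to the RNA it touches and the RNA that comes down with an antibody is sequenced. Both immunoprecipitates, replicates 1 and 2, were made from HEK293T, an established human embryonic kidney line (the growth text writes HEK293). The third library is the input, for which the labels give no antibody. The antibody field names anti-TIA1 while the treatment text names Msi1 for the same catalogue number, and the labels call the replicates technical in one place and biological in another. The spread between replicates may therefore be technical. Positions are in hg19, and genes are not named, because the annotation at hand is of another build.

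TIA1 is an RNA-binding protein with RNA recognition motifs that prefers U-rich stretches. In the nucleus it binds introns just downstream of weak 5′ splice sites and helps U1 snRNP to join them. In the cytoplasm it binds AU-rich and U-rich 3′ ends, dampens translation and collects in stress granules.

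The libraries, as recovered from the deposited values, held 2683407 reads in replicate 1, 1997817 in replicate 2 and 2851338 in the input. A cluster is an interval that the authors called in 1 replicate, and there were 103134 in replicate 1 and 66222 in replicate 2. The log2 fold compares the share of immunoprecipitated reads in an interval with the share of input reads there, and the listed value is the authors' for both replicates together. Reads of both replicates came out whole at all 1212 isolated peaks.

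The isolated peaks held few reads over a small input. Replicate 1 had 13 to 383 reads per peak with a median of 21, and replicate 2 had 10 to 323 with a median of 17. The lowest values are the fewest with which an enriched cluster occurred in either list. The input number was 1 at 744 peaks (61.4%, exact 95% interval 58.6 to 64.1), and since every deposited fold is finite this number can stand for 0 or 1 read. The isolated peaks together made up 1.26% of the library of replicate 1 and 1.29% of that of replicate 2. Intervals here cover counting error only.

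**Figure D1:**
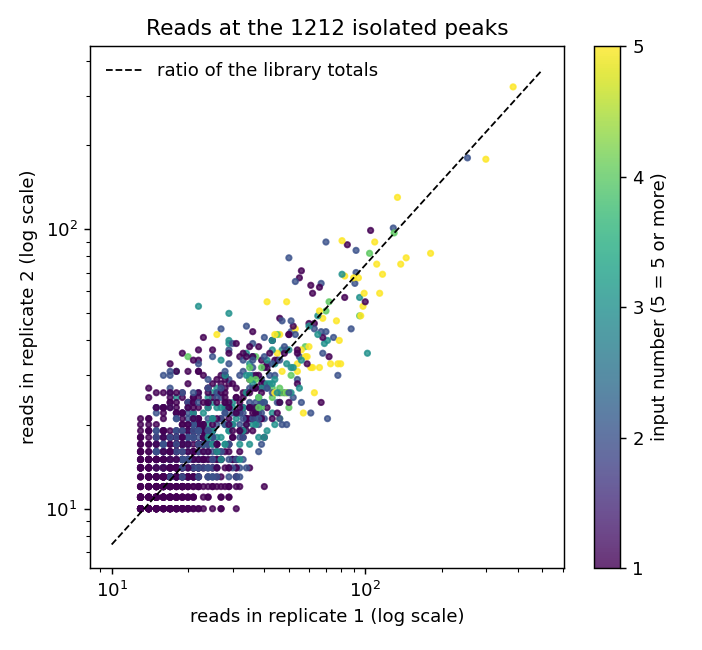
Reads at each of the 1212 isolated peaks in replicate 1 (horizontal, log scale) and replicate 2 (vertical, log scale), coloured by the input number; the dashed line is the ratio of the library totals. Most points lie near the lower corner, at medians of 21 and 17 reads, and 67 peaks have at least 100 reads in all.

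The listed log2 fold of the isolated peaks ran from 3.001 to 7.04 with a median of 4.15, which is 17.8-fold over the input. It lay under 4 at 460 peaks, between 4 and 5 at 626, between 5 and 6 at 112 and at 6 or above at 14. The listed −log10 p started at 3.002 and had a median of 4.35, and 457 peaks (37.7%) were under 4. No isolated peak stood at the ceiling of 400. The 14 peaks of at least 6 had medians of 67 and 62.5 reads, against 19 and 15 for those between 4 and 5. No input number was under 1, so a high fold needs many reads and this difference is largely set by how the fold is defined.

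Replicate 1 taken alone had a median log2 fold of 4.09, and replicate 2 had 4.10. Both replicates reached 3 at 1166 of the 1212 peaks (96.2%). In loci of 2 to 4 this share was 94.1%, and in loci of 5 or more 93.4%. No listed fold, a mean over the replicates, was under 3, so these shares are largely set by the list. The folds of the replicates lay a median of 0.30 apart (log2) at isolated peaks. This median was 0.20 at up to 30 reads in all and 0.37 at 41 to 60. The list was chosen for peaks found in both replicates, so the size of these differences is partly set by it too. At 41 isolated peaks (3.38%) the folds differed by over 1, against 4.73% in loci of 2 to 4 and 4.63% in loci of 5 or more. Replicate 2 had the higher fold at 686 isolated peaks (56.6%), and at 56.4% of the peaks in loci of 2 to 4 and 65.3% in loci of 5 or more. The fold of the replicate that did not supply a peak's bounds was worked out from the listed mean, and so was the SD. Both folds share 1 input, so these differences leave out its error.

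Peaks in loci of 2 to 4 had the same median listed log2 fold, 4.15, but lower p-values. Their median −log10 p was 5.74, and 185 of 782 (23.7%) were under 4. They held more reads, with medians of 27 and 22, and more input, since the input number was 1 at 42.7% of them. At least 100 reads in all were present at 17.5% of the peaks in loci of 2 to 4, against 5.53% of the isolated ones. At matched reads the median folds were not always the same. They were 4.05 in both classes at up to 30 reads in all, and 4.29 for isolated peaks against 4.25 at 31 to 40. They were 4.59 against 3.96 at 41 to 60, 4.25 against 4.29 at 61 to 100, and 4.83 against 4.51 above. At matched reads the fold depends on the input number, which moves in whole steps. Its medians were 1 against 2 at 41 to 60 reads, 2 in both classes at 61 to 100, and 3 against 4 above. The median differences between replicates were 0.30 for isolated peaks and 0.29 in loci of 2 to 4, both partly set by the list.

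**Figure D2:**
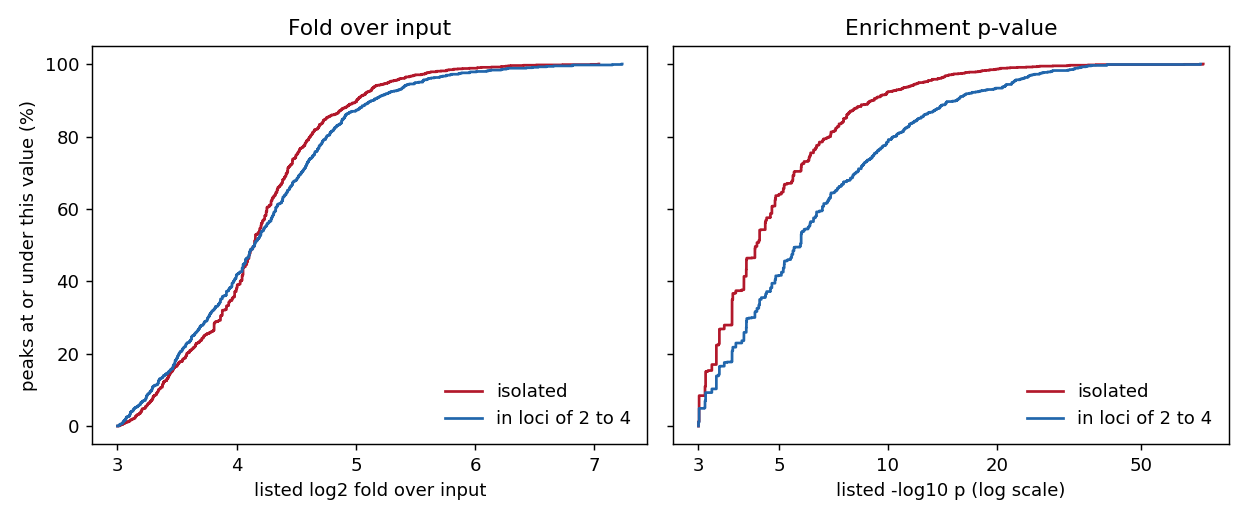
Cumulative share of peaks by listed log2 fold over input (left) and listed −log10 p (right, log scale) for the 1212 isolated peaks and the 782 in loci of 2 to 4. The curves of the fold cross near the common median of 4.15, while the p-value curve of the isolated peaks lies to the left, with medians of 4.35 and 5.74.

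The isolated peaks of highest fold came from sites with almost no input. The highest, at 39449302 to 39449379 of chromosome 3 (plus strand), had 253 reads in replicate 1, 180 in replicate 2 and an input number of 2. Its listed log2 fold was 7.04 ± 0.05 (SD, n = 2). Next, at 102632788 to 102632924 on chromosome X (plus strand, 137 nt wide), was a site with 105 and 99 reads over 1 and a log2 fold of 6.97 ± 0.24 (SD, n = 2). On chromosome 22, minus strand, the peak from 19023828 to 19023897 had 85 and 88 reads over 1. Replicate 2 was the higher there in fold, 6.97 against 6.50.

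Among the 10 highest folds were also peaks on chromosome X from 153197455 to 153197500 (minus strand, 6.51) and on chromosome 2 from 242276917 to 242276989 (plus strand, 6.40). Chromosome 5 had a pair of them, 65449453 to 65449516 (6.30) and 10401621 to 10401684 (6.25), both plus strand. The rest were on chromosome 1 from 182823334 to 182823385 (plus strand, 6.28), chromosome 12 from 120899716 to 120899787 (minus strand, 6.22) and chromosome 6 from 150049445 to 150049494 (minus strand, 6.22). In 9 of these 10 the input number was 1, so each such fold rests on the smallest input that occurs. Reads in the 7 from 6.51 down ran from 55 to 100 in replicate 1 and from 55 to 71 in replicate 2.

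Peaks of the highest −log10 p were partly others. The first, at 73070255 to 73070309 on chromosome X (minus strand), had 383 and 323 reads over 25 in the input, and its log2 fold was 4.11 ± 0.13 (SD, n = 2). The chromosome 3 peak from 39449302 came second, at a −log10 p of 65.6. On chromosome 20, plus strand, from 42087355 to 42087411, 299 and 178 reads stood over 30, for a log2 fold of only 3.24 ± 0.23 (SD, n = 2). After it came the stretch 89825087 to 89825148 of chromosome 15 (plus strand), which had 129 and 101 reads over 2. The fifth, on chromosome 9 from 139299460 to 139299527, minus strand, had 130 and 97 reads over 4 and the same fold in both replicates, 5.11.

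At the other end, the lowest listed log2 fold was 3.001, on chromosome 15 from 44063641 to 44063709 (plus strand), with 56 and 37 reads over 7. The next were 3.01 on chromosome 11 from 118881345 to 118881483 and 3.02 on chromosome 2 from 203142748 to 203142836, both on the plus strand. The lowest −log10 p, 3.002, belonged to 15 reads over 2 in replicate 1 and was shared by 16 isolated peaks. The 3 of highest fold among them lay on chromosome 21 from 17191186 to 17191228 and from 34823032 to 34823086, with 23 reads in replicate 2 at both, and on chromosome 14 from 56150904 to 56150997, with 22.

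The replicates differed most on the minus strand of chromosome 1 from 155887222 to 155887276. There 22 reads in replicate 1 and 53 in replicate 2 stood over 3, giving log2 folds of 2.96 and 4.66. Replicate 2 was the higher at all 5 peaks of the largest difference, and at 56.6% of all isolated peaks. The other 4 lay on chromosome 9 from 21968028 to 21968107 (17 and 33 reads), chromosome 20 from 47711161 to 47711217 (14 and 27), chromosome 1 from 78097435 to 78097489 (19 and 36) and chromosome 7 from 92195242 to 92195307 (16 and 30).

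Isolated peaks were wider by the median than peaks in loci of 2 to 4, and that gap was found among peaks with another cluster close by and not among those without one. The split by close clusters was added after seeing the data, and the part of close clusters in the gap was not tested. Clusters at other listed peaks count as close ones, and only peaks in loci of 2 to 4 can have these. The classes are therefore not split alike. The median width of isolated peaks was 56 nt (interquartile range 48 to 69), against 52 nt (43 to 63) in loci of 2 to 4 and 41 nt (31 to 52) in loci of 5 or more. The difference of 4 nt from loci of 2 to 4 was 2 nt with 1 value per locus or with joining across 50000 nt, and 7 nt with joining across 1000 nt. Among peaks with no other cluster of either replicate within 100 nt, the median was 55 nt for 757 isolated peaks and 55 nt for 305 in loci of 2 to 4. With another cluster within 100 nt it was 56 nt for 455 isolated peaks and 50 nt for 477 in loci of 2 to 4. A cluster touched the peak at 54 isolated peaks (4.46%) and at 150 peaks in loci of 2 to 4 (19.2%). In the latter it could be at another listed peak, so the direction is partly set by the rule.

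The isolated peaks also had the wider median at matched reads. With up to 30 reads in all, the median width was 53.5 nt for 298 isolated peaks and 45 nt for 97 in loci of 2 to 4. It was 55 and 49 nt at 31 to 40 reads, 58 and 52 nt at 41 to 60, 57 and 56 nt at 61 to 100, and 58 and 54 nt above. Within the isolated peaks the median width was 56 nt for log2 folds of 3 to 4, 55 nt for 4 to 5, 56 nt for 5 to 6 and 63 nt for the 14 of at least 6. It was 55 nt at the 25 peaks with no other cluster and 56 nt at the 102 with 31 or more.

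**Figure D3:**
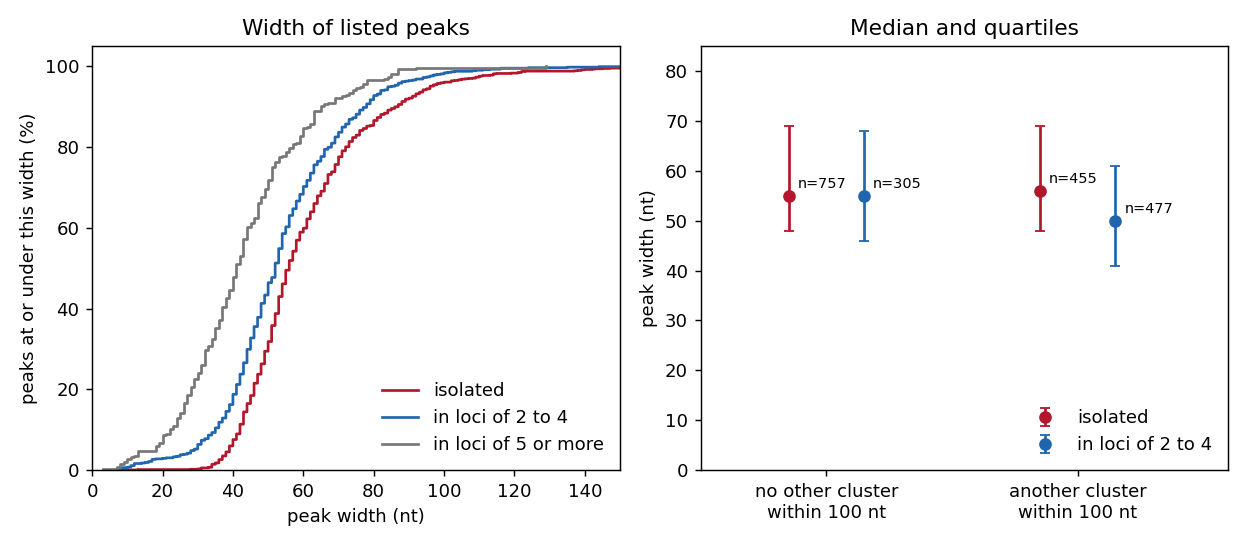
Left, cumulative share of peaks by width in nt for isolated peaks, peaks in loci of 2 to 4 and, where reads were recovered, 253 of the 259 in loci of 5 or more. Right, median width (points) and quartiles (bars) of isolated peaks and peaks in loci of 2 to 4, split by whether another cluster lies within 100 nt: both medians are 55 nt without one, and 56 and 50 nt with one. Clusters at other listed peaks count here, and only peaks in loci of 2 to 4 can have these.

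Most isolated peaks were 41 to 100 nt wide, 634 of them up to 60 nt and 438 above that. The narrowest was 7 nt, on chromosome 19 from 1408884 to 1408890 (plus strand), with 13 and 11 reads in a stretch where 35 and 24 other clusters lay within 10000 nt. The next, 13 nt at 24313729 to 24313741 of chromosome 22 (minus strand), had a cluster touching it, as did one of 28 nt on chromosome 17 from 79801511 to 79801538 (minus strand). The widest, 200 nt on chromosome 12 from 123745719 to 123745918 (minus strand), had only 16 and 19 reads over 1. Peaks of 196 nt on chromosome 3 from 145787389 to 145787584 and 173 nt on chromosome 6 from 114261955 to 114262127, both on the minus strand, followed.

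The list was chosen for peaks found in both replicates, so overlap between their clusters is a condition of it and the bounds are given as a description. Each listed peak has the bounds of a cluster of replicate 1 (632 of the isolated ones), of replicate 2 (568) or of both (12). At 1122 isolated peaks exactly 1 cluster of each replicate overlapped the peak. Their 5′ ends differed by a median of 3 nt and their 3′ ends by 6 nt, and the shared stretch was a median of 81.9% of the joined one. The 5′ ends lay within 5 nt of each other at 71.3% of these peaks and the 3′ ends at 45.5%. In loci of 2 to 4 these shares were nearly the same, 72.0% and 45.9%, with the same median differences of 3 and 6 nt. Of the 12 with the same bounds in both, the highest folds were on chromosome 3 from 98308425 to 98308475 (minus strand, 50 and 42 reads over 1), chromosome 17 from 65883869 to 65883909 (plus strand, 23 and 30 over 1) and chromosome 2 from 73476324 to 73476369 (plus strand, 33 and 19 over 1).

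A cluster is called enriched here where both its log2 fold and its −log10 p reach 3. In replicate 1, 3.09% of all clusters were enriched, and in replicate 2, 5.32% were. An enriched cluster of replicate 1 overlapped 1138 isolated peaks, one of replicate 2 overlapped 1150, and enriched clusters of both overlapped 1076 (88.8%). These counts are largely set by the list's own limits, so nothing is read from them. At the remaining 136 peaks the cluster called in 1 of the replicates fell short within its own bounds. Over the listed bounds both folds still reached 3 at 91 of the 136.

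Most isolated peaks had clusters outside the list near them, as had clusters at large. Another cluster of the same strand, one that did not overlap the peak, lay within 10000 nt of 1165 isolated peaks (96.1%) in replicate 1 and of 1131 (93.3%) in replicate 2. Of all clusters of a list, 93.1% in replicate 1 and 89.1% in replicate 2 had another of that list in reach. Only 25 isolated peaks (2.06%) had none in either list. The median number of other clusters in that reach was 7 in replicate 1 (interquartile range 3 to 11) and 4.5 in replicate 2 (2 to 8). Over all clusters of each list these medians were 7 and 5, close to those of the isolated peaks. On the opposite strand a cluster lay within reach of 14.0% and 11.7% of the isolated peaks, and of 11.8% and 10.1% of the peaks in loci of 2 to 4.

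In loci of 2 to 4 the surroundings were fuller. The medians were 11.5 and 9 other clusters, and 10 and 8 when clusters overlapping any listed peak were left out. The order was the same at matched reads, with gaps of different size. At up to 30 reads in all, isolated peaks had medians of 5 and 4 other clusters, and peaks in loci of 2 to 4 had 10 and 8 at no listed peak. At 31 to 40 reads these were 6 and 5 against 11 and 8, and at 41 to 60 reads 7 and 4 against 9 and 8. At 61 to 100 reads they were 7 and 5 against 9 and 7, and above that 8 and 6 against 10 and 7. The nearest other cluster of replicate 1 was a median of 282 nt away from an isolated peak that had one in reach, and 104 nt from a peak in a locus of 2 to 4. In replicate 2 these distances were 367 and 117.5 nt. Clusters at listed peaks count in these distances, and only peaks in loci of 2 to 4 have such clusters in reach. The direction of the difference is therefore partly set by the rule.

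Other clusters gathered close to the peak on both sides. In replicate 1 the isolated peaks had 0.43 other clusters per peak in the 500 nt on the 5′ side and 0.54 on the 3′ side, falling to 0.15 and 0.14 in the outermost 500 nt. In replicate 2 these values were 0.39 and 0.43, and 0.10 and 0.08. Over the whole reach the 5′ side held 49.6% of the other clusters in replicate 1 and 48.8% in replicate 2. Both sides held nearly even numbers.

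**Figure D4:**
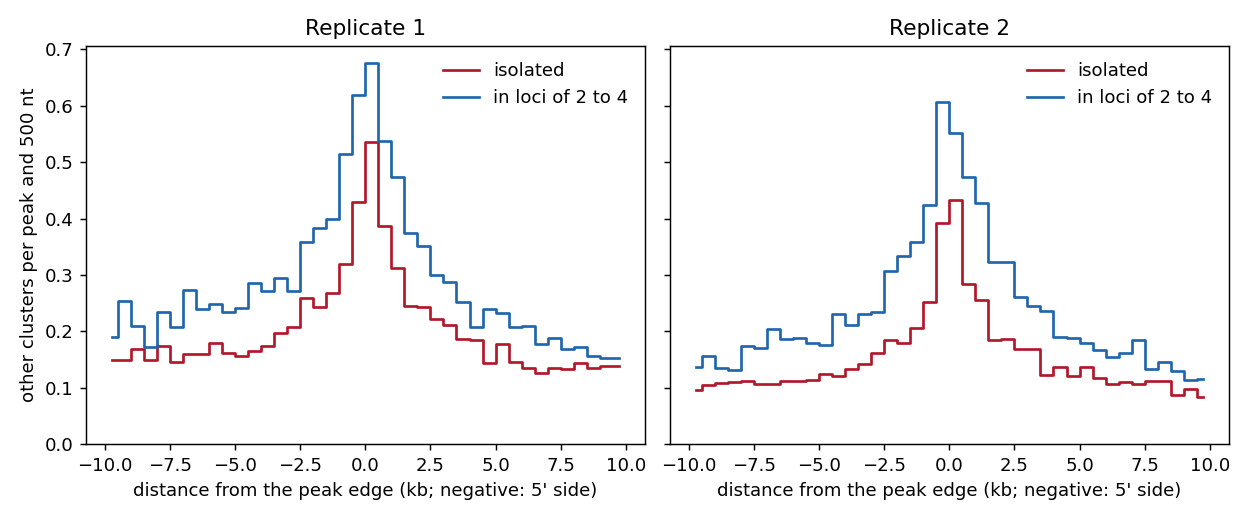
Other clusters per peak in steps of 500 nt along the strand, in kb from the edge of the peak (negative on the 5′ side), for isolated peaks and peaks in loci of 2 to 4, leaving out clusters that overlap a listed peak. In both replicates the curve of the isolated peaks rises to 0.54 (replicate 1) and 0.43 (replicate 2) in the 500 nt on the 3′ side, where that of the loci of 2 to 4 is at 0.68 and 0.55.

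The clusters around isolated peaks were mostly weak. Each counted once, there were 9590 from replicate 1 and 7221 from the other list. Their median log2 folds were 1.67 and 2.10, and the 8345 and 6822 whose reads were recovered uniquely had medians of 5 and 4 reads. Of the 9590 and 7221, 174 (1.81%) and 238 (3.30%) were enriched, against 3.09% and 5.32% of all clusters. The rule bears on these shares, since no other listed peak lies in reach of an isolated one. An enriched neighbour was present in replicate 1 at 149 isolated peaks (12.3%), in replicate 2 at 199 (16.4%), in either at 313 (25.8%) and in both at 35 (2.89%). At none of the 35 did the enriched neighbours of the replicates overlap each other. The enriched neighbours held medians of 16 and 12 reads. A cluster of the other replicate overlapped 146 of the 174 and 215 of the 238, and was itself enriched for 0 and 3 of them. Overlapping clusters enriched in both replicates would mostly be listed, and no other listed peak was in reach. The lack of overlap between enriched neighbours is therefore largely set by the rule, and nothing is read from it. Under a limit of 1 on the log2 fold and the same limit on −log10 p, which 4.14% and 6.36% of all clusters passed, 31.9% of isolated peaks had such a neighbour in either list. Under limits of 4 and 5 on fold and −log10 p (0.886% and 1.51% of all clusters) 2.15% had one.

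The same was counted for loci of 2 to 4. Leaving out clusters at listed peaks, an enriched cluster lay within reach of 21.1% of their peaks in replicate 1, 32.2% in replicate 2 and 45.9% in either. With listed peaks counted the share is 100% by construction.

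The rule leaves no other listed peak in reach of an isolated one, so its standing among nearby clusters is largely set by the rule and is given as a description. Counting reads in clusters above the input, it held more reads than any other cluster within 10000 nt at 1081 peaks (89.2%) in replicate 1, at 1085 (89.5%) in replicate 2 and at 1022 (84.3%) in both. In loci of 2 to 4, which by definition hold another listed peak, this was so for 37.6% and 40.4% of the peaks. Leaving out clusters at listed peaks, a setting added after seeing the data, it was so for 76.0% and 78.4% of them. The median share of the local cluster reads in the peak was 41.5% in replicate 1 and 46.4% in replicate 2, with interquartile ranges of 26.2 to 62.9% and 29.7 to 66.7%. In loci of 2 to 4 the medians were 19.9% and 20.3% with every cluster counted, and 30.9% and 32.0% without clusters at listed peaks. Over 90% of the local reads were in the peak at 66 isolated peaks in replicate 1 and at 97 in replicate 2.

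**Figure D5:**
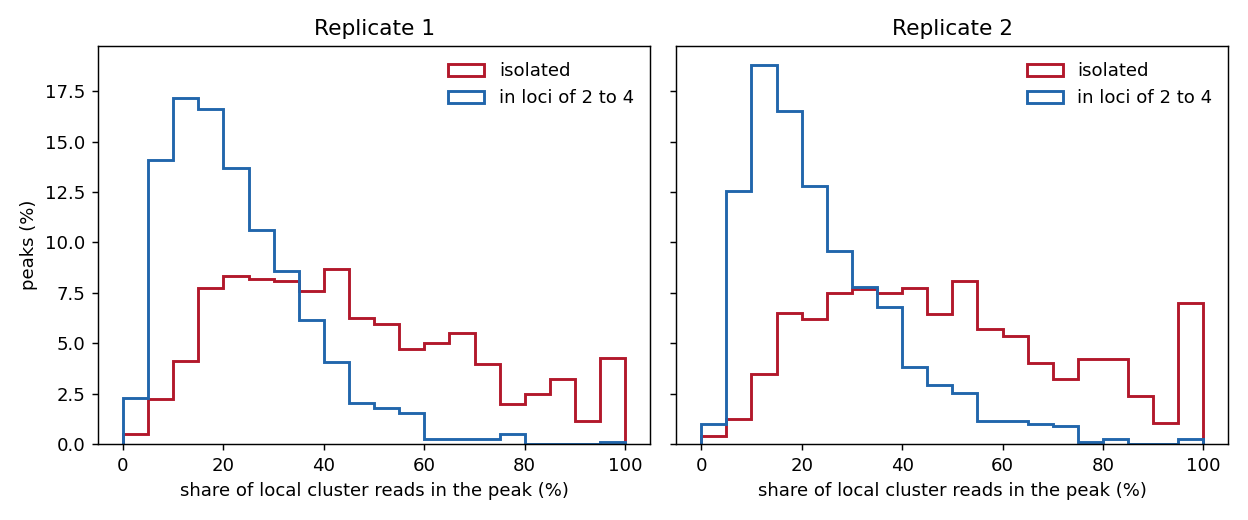
Share of the reads in clusters above the input within 10000 nt on the same strand that fell in the peak (horizontal, %), by the percent of peaks (vertical), for isolated peaks and peaks in loci of 2 to 4 in each replicate. Isolated peaks spread over the whole range with medians of 41.5% and 46.4%, and those of the loci of 2 to 4 are 19.9% and 20.3%. Other listed peaks count among the local reads, which fixes the direction in part: without them the latter medians are 30.9% and 32.0%.

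The share fell as neighbours rose in number, while the reads and fold of the peak stayed close. The local reads include those of the same neighbours, so the fall is largely set by how the share is defined. With 1 to 5 other clusters in both lists together (260 peaks) the median shares were 73.6% and 80.0%, and with 31 or more (102 peaks) 14.2% and 15.8%. The median reads were 20 and 15 in the first group and 23 and 18 in the second, and the median log2 folds were 4.16 and 4.04.

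Named peaks stood at both ends of this range. The chromosome 3 peak from 39449302 held 100% of the local cluster reads in replicate 1 and 92.8% in replicate 2. It had 1 other cluster in reach in replicate 1, which was not above the input and so was not counted. The chromosome X peak from 102632788 held 92.9% and 93.4%. Among the 25 peaks with no other cluster, the strongest was on chromosome 17 from 17942122 to 17942174 (minus strand), with 59 and 33 reads over 1 and a log2 fold of 5.76 ± 0.29 (SD, n = 2). These 25 peaks had 13 to 71 reads in replicate 1 and 10 to 40 in replicate 2, and their log2 folds ran from 3.28 to 5.76.

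The most crowded isolated peak, at 20284363 to 20284411 of chromosome 4 (plus strand), had 69 other clusters in replicate 1 and 54 in replicate 2. It had 19 and 17 reads, 3.06% and 4.07% of the local cluster reads. The chromosome X peak from 73070255 had 63 and 55 other clusters and one touching it among them, and held 9.48% and 8.85% although it had more reads than any other isolated peak. On chromosome 17, minus strand, the peak from 46681745 to 46681808 had 45 and 34 others, with 1 and 3 enriched. A further peak on chromosome 4, from 20361952 to 20362018 (plus strand), and one on chromosome X, from 73458193 to 73458250 (minus strand), each had 37 and 38.

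Distances to the next listed peak on the strand spread widely. The median was 389100 nt, 855 isolated peaks (70.5%) were over 100000 nt from the next and 412 (34.0%) over 1000000 nt. The farthest lay on chromosome 18 from 57571404 to 57571469 (plus strand), 23826836 nt from the next, with 54 and 29 reads over 2. After it came one on chromosome 4 from 119200610 to 119200652 (plus strand, 22271275 nt), one on chromosome 2 from 175945329 to 175945376 (minus strand, 21718780 nt), one on chromosome 6 from 1612988 to 1613026 (plus strand, 19984219 nt) and one on chromosome 4 from 76720944 to 76721019 (plus strand, 18927026 nt). Peaks up to 100000 nt from the next had medians of 9 and 7 other clusters, and those over 1000000 nt had 5 and 4. Their median log2 folds were 4.12 and 4.15.

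The peaks nearest to the limit of 10000 nt were these. Just beyond it, a plus-strand pair of chromosome 9, 134353345 to 134353420 and 134363499 to 134363589, stood 10078 nt apart with log2 folds of 4.52 and 3.23. Another, at 60658495 to 60658555 of chromosome 11 (minus strand), was 10103 nt from its neighbour, at 3.36. Just within it were pairs 9914 nt apart on chromosome 9 from 82242383 to 82252424 (5.05 and 4.33), 9913 nt apart on chromosome 1 from 23649991 to 23660002 (5.13 and 3.82) and 9829 nt apart on chromosome 5 from 138651439 to 138661420 (4.72 and 5.02).

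Of the isolated peaks 571 (47.1%) were on the plus strand, against 50.6% of the peaks in loci of 2 to 4. A listed peak lay within 10000 nt on the opposite strand at 25 isolated peaks (2.06%). This share was 1.28% in loci of 2 to 4 and 5.02% in loci of 5 or more. Chromosome 1 held the most isolated peaks, 153, which was 47.4% of its listed peaks. The isolated share of a chromosome's peaks was highest on chromosomes 15 (71.7%) and 6 (71.1%), neither of which had a locus of 5 or more, and lowest on chromosome 11 (39.5%), where 57 peaks lay in such loci.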

How the data were processed

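The authors deposited 1 list of clusters for each of 2 TIA1 immunoprecipitates and 1 list of reproducible peaks. The input enters only through the deposited values. The lists have no header, and the units were read from the values: a deposited −log10 p-value against the input, up to a ceiling of 400, and a deposited log2 fold over the input. Cutadapt 1.14 and 1.9.1, STAR 2.4.0i, SAMtools 1.4.1 and build hg19 are named per the submitters' processing notes. The cluster caller is not given in the sources used here. At the 21 listed peaks with the bounds of both replicates, the listed fold was their mean and the listed −log10 p the lower in all 21, and the fold of the other replicate at the remaining peaks was taken from that mean.

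Reads were recovered from the steps of the fold and from the p-value (Fisher's exact test if any number, seen or expected, fell under 5, otherwise chi-square with Yates' correction). The library totals were multiplied by 3, the best of 6 multiples. The −log10 p had to match within a relative 2e-05 plus 5e-06, and reads whole within 1e-04. Reads were recovered uniquely for 89.6% and 96.0% of the clusters, and the smallest number was used where several fitted (at least 3 reads). Clusters at or below the input were left out of local reads, since their reads are not fixed by these values. The recovery, joining and counting steps were tested on simulated data, and the joining was checked with bedtools 2.31.1. Python 3.11.15 and scipy 1.17.1 were used. Intervals of shares are exact (Clopper-Pearson).

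Peaks named by rule are the extremes of fold, −log10 p, width, neighbours, distance, difference between replicates and distance near the limit of 10000 nt. The highest of the peaks with no other cluster was chosen after its values were seen. The members and settings were chosen with earlier results of these data known. Sequence and gene annotation were not used here, as the reference at hand is GRCh38.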

Additional observations from a re-analysis of the deposited data

How the results depend on the processing

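Over 16 results, 86 other settings were tried, 78 of them listed beforehand and 8 added after seeing the data. Of these 31 stayed within 1.5 times for a count or within the interval or replicate spread of the value otherwise, 54 moved further and 1 turned direction. No paired analysis was possible because the input has no replicate numbers and the immunoprecipitates form 1 group.

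Joining across 1000 nt gave a median −log10 p of 4.43 and a width difference of 7 nt, against 4.35 and 4 nt. Joining across 50000 nt, or taking 1 value per locus, gave a width difference of 2 nt. Other joining distances and joining whatever the strand kept every value within those limits. Isolated peaks numbered 952 to 1597 over the distances. With listed peaks limited to log2 folds from 4 and −log10 p from 5 upwards, there were 470 isolated peaks, with a median width of 58 nt, a median log2 fold of 4.83, a median −log10 p of 7.70, a width difference of 9 nt and a fold difference of 0.080. The width difference was 6 nt at 31 to 40 reads and 0 nt without a cluster within 100 nt. Leaving out either replicate gave median log2 folds of 4.09 to 4.10 and fold differences of -0.059 to 0.

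Within 1000, 5000 and 20000 nt, 81.9%, 95.4% and 99.3% of isolated peaks had another cluster in either list (97.9% at 10000 nt), with medians of 2, 7 and 17 clusters (11). Another enriched cluster lay there at 10.9%, 19.6% and 37.9% (25.8%), which differed from loci of 2 to 4 by -51.9, -70.1 and -62.1 percentage points (-74.2). The median numbers differed by -4, -7.5 and -11 (-9.5). By definition a peak in a locus of 2 to 4 has another listed peak within 10000 nt and an isolated peak has none. The direction of these same-strand differences, here and below, is therefore largely set by the rule wherever listed peaks are counted. On the opposite strand the shares were 14.6% and 3.38%, the median was 0 and its difference 0, and the difference in enriched share turned to 1.08 points. Leaving out either replicate gave 93.3 to 96.1%, medians of 4.5 to 7, enriched shares of 12.3 to 16.4%, differences of -83.9 to -77.8 points and of -4.5 clusters. Enriched shares were 31.9% (difference -68.2 points) at a log2 fold of 1, which 4.14% and 6.36% of all clusters met, and 2.15% (-63.5 points) at a log2 fold of 4 and a −log10 p of 5, which 0.886% and 1.51% met. Leaving out clusters at listed peaks, the differences were -20.1 points and -7 clusters, and the differences in median local read share were 10.6 and 14.4 points in replicates 1 and 2, against 21.6 and 26.1. The median difference between replicates was 0.34 both with at least 20 reads in each (408 peaks) and with the same bounds (12 peaks). A wider reach can only add clusters, and a stricter limit or leaving out a replicate can only remove them. The direction of those shifts in the shares and medians of isolated peaks is thus set by the settings. Beyond that, the cause of the shifts was not tested. The planned settings on U content were not run, since no genome of the files' build was used here. Depth limits single peaks: 13 and 10 reads are the fewest that occurred.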
